A study of Mus musculus with 2 samples.

Results

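The Mir130 and Mir301 genes encode a microRNA family joined by a common seed, the bases with which a microRNA pairs to its target messages. Its 4 genes here, Mir130a, Mir130b, Mir301 and Mir301b, were looked up by symbol among the 2202 microRNA genes of the tables, and all 4 were found. They were chosen by name with the counts of these libraries already known, among them the large gap of Mir301 between the replicates. Their levels and replicate ratios are therefore given as a description, with no test.

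The samples were gastrocnemius, a calf muscle of the hindlimb, from adult male B6CASTF1/J mice aged 18 to 20 months, the first-generation hybrids of the C57BL/6J and CAST/EiJ strains. Small RNA under 30 nt was sequenced in 2 libraries, biological replicates 1 and 2 of 1 group, and no treatment or other condition was named. The labels gave the biosamples different identifiers but the same donor entry and did not say whether they came from separate animals, so differences between the libraries may be technical. Sense counts over all microRNA genes came to 4442692 in replicate 1 and 2156222 in replicate 2. Levels are CPM, counts per 1000000 of these sense counts, and they are not divided by gene length because a read of this size spans a whole mature microRNA.

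A microRNA is cut from a hairpin precursor, and either arm of the hairpin can give a mature strand of about the length of these reads, named 5p or 3p. The strand guides the silencing complex to messages with sites matching its seed, so microRNAs of 1 seed share many predicted targets. The miR-130 and miR-301 strands are known for repressing the message of PPARgamma, the master regulator of fat cell formation, and for roles in vessel growth and in the remodelling of lung vessels. The counts are per gene and do not separate the arms.

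The mature 3p strands carry the family's identity and are shown 5′ to 3′ as RefSeq gives them for GRCm38.p6, with the seed, bases 2 to 8, in capitals. For Mir301b the line gives the stretch of its RefSeq hairpin, bases 55 to 77, that differs least from miR-301a-3p.
miR-130a-3p: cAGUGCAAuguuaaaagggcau
miR-130b-3p: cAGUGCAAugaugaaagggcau
miR-301a-3p: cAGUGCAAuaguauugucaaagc
Mir301b hairpin stretch: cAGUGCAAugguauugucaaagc

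The sequences fell into a miR-130 pair and a miR-301 pair. Counted from the 5′ end, miR-130a-3p and miR-130b-3p differed at 2 of 22 positions, U11A and A13G with miR-130a-3p as the first base. The Mir301b stretch differed from miR-301a-3p at 1 of 23 positions, A10G. Across the pairs the resemblance stopped soon after the seed: miR-130a-3p and miR-301a-3p matched over their first 9 bases and differed at 10 of the 22 positions compared. Differences within a pair lay outside the seed in both pairs.

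The 4 genes lie at 3 loci of the mm10 assembly in the GENCODE M21 annotation. Mir130a (ENSMUSG00000065484.1, chr2:84741115-84741178, minus strand) overlaps no other gene, and the nearest is the protein-coding gene model Gm19426, 990 bases upstream on the same strand. Mir301 (ENSMUSG00000065589.1, chr11:87113004-87113089, plus strand) lies in intron 1 of 3 of Ska2, which encodes a subunit of the spindle and kinetochore associated complex. Mir130b (ENSMUSG00000065572.1, chr16:17124061-17124142) and Mir301b (ENSMUSG00000076288.1, chr16:17124400-17124496) lie 257 bases apart on the minus strand, both in intron 1 of 6 of the protein-coding gene 2610318N02Rik. No host transcript had an exon over any of the 3 intronic members, so none of the 4 genes is exonic in M21. The host messages were not measured in these libraries of small RNA.

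**Figure D1:**
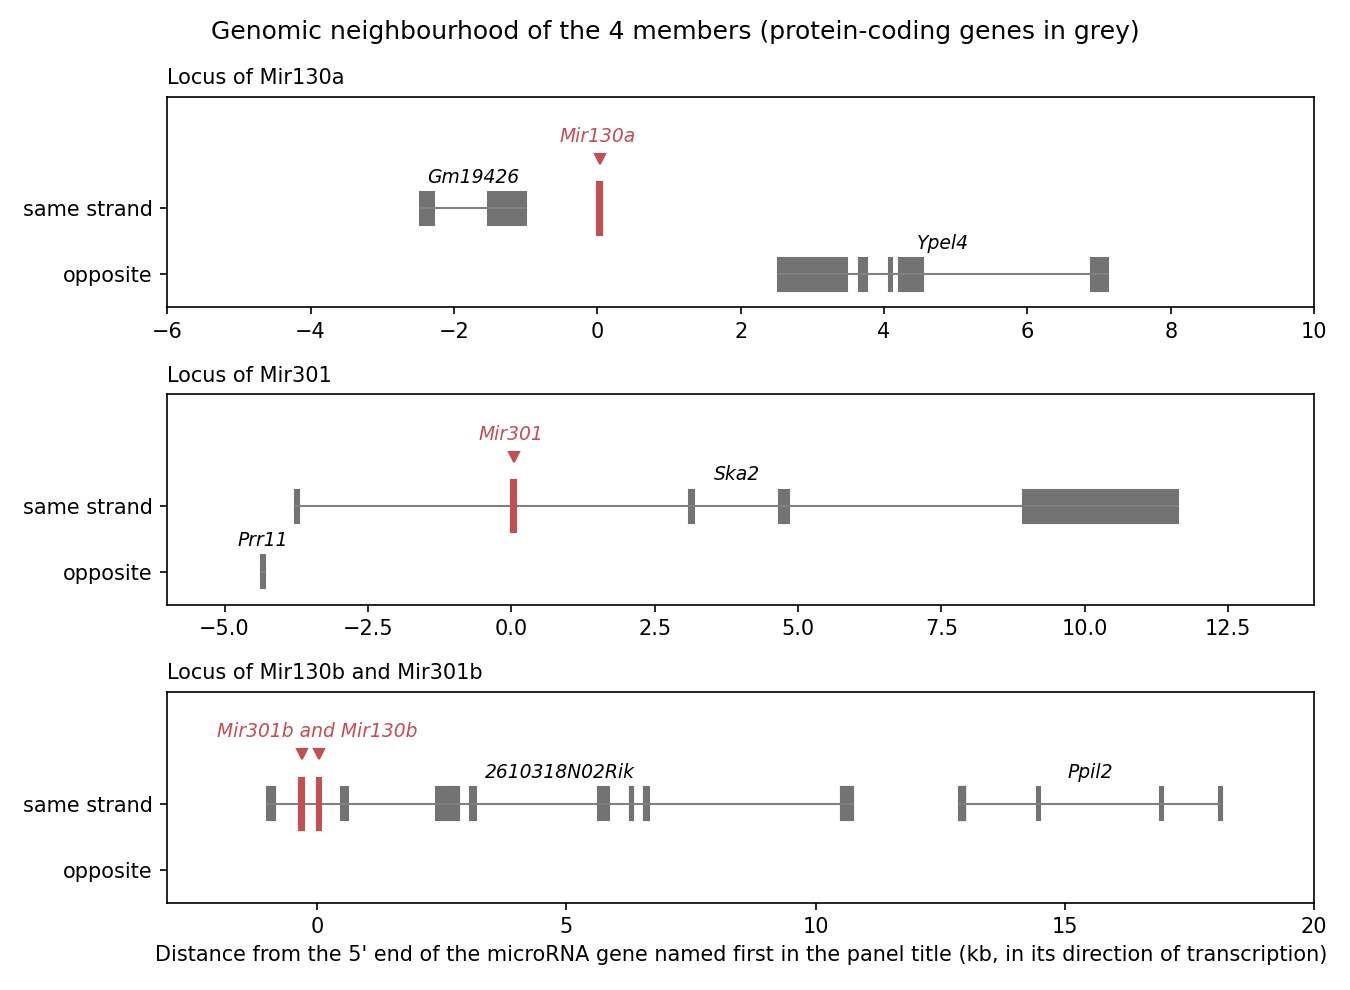
Position of the 4 members (red) beside the exons of protein-coding genes (grey boxes, joined by lines for each gene), in kb from the 5′ end of the microRNA gene named first in each panel title. Mir130a stands between genes, Mir301 lies inside Ska2, and Mir301b and Mir130b sit 0.257 kb apart inside 2610318N02Rik.

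Mir130a was the main gene of the family in both libraries. It held 3801 counts in replicate 1 and 2318 in replicate 2, or 856 CPM (exact 95% interval 829 to 883) and 1075 CPM (1032 to 1120). These levels ranked it 54th and 52nd among all genes, with a mean of 965 ± 155 CPM (SD, n = 2). The intervals did not overlap, and replicate 2 was the higher library. Intervals here and below cover counting error only, and reads amplified by PCR are not independent molecules.

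Mir301 was the second gene of the family in replicate 1 and low in replicate 2. It held 970 counts and 20 counts, or 218 CPM (205 to 233) in replicate 1 and 9.28 CPM (5.67 to 14.3) in replicate 2. Its rank went from 106th to 252nd, and its SD of 148 CPM exceeded its mean of 114 CPM (n = 2). The mean therefore describes neither library.

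Mir130b was low and even. It held 47 counts in replicate 1 and 23 in replicate 2, or 10.6 CPM (7.77 to 14.1) and 10.7 CPM (6.76 to 16), a mean of 10.6 ± 0.0620 CPM (SD, n = 2). The SD is far inside the counting intervals, which overlap over most of their width. In replicate 2 the intervals of Mir130b and Mir301 overlapped too, so their order there was not resolved, while in replicate 1 Mir301 stood clearly above Mir130b.

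Mir301b had no count in either library, on its own strand or without regard to strand. Taking 3 counts as what a count of 0 allows, its level could reach 0.675 CPM in the deeper library and 1.39 CPM in the shallower. Its intron mate Mir130b exceeded these limits in both libraries, so the 2 precursors of this locus did not give equal counts. The order of levels was Mir130a, Mir301, Mir130b and Mir301b in replicate 1, and the same in replicate 2 except for the unresolved middle pair.

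Detection was set at 2 CPM in each library, and 3 of the 4 members reached it, against 324 of all 2202 genes, or 14.7%. The members' counts did not rest on the choice of strand. The strand opposite to Mir130a had 2 counts in replicate 1, within the limit of a count of 0, and no other member had any count there. Each detected member held the same or nearly the same count when strand was ignored, for instance 3803 against 3801 for Mir130a in replicate 1.

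**Figure D2:**
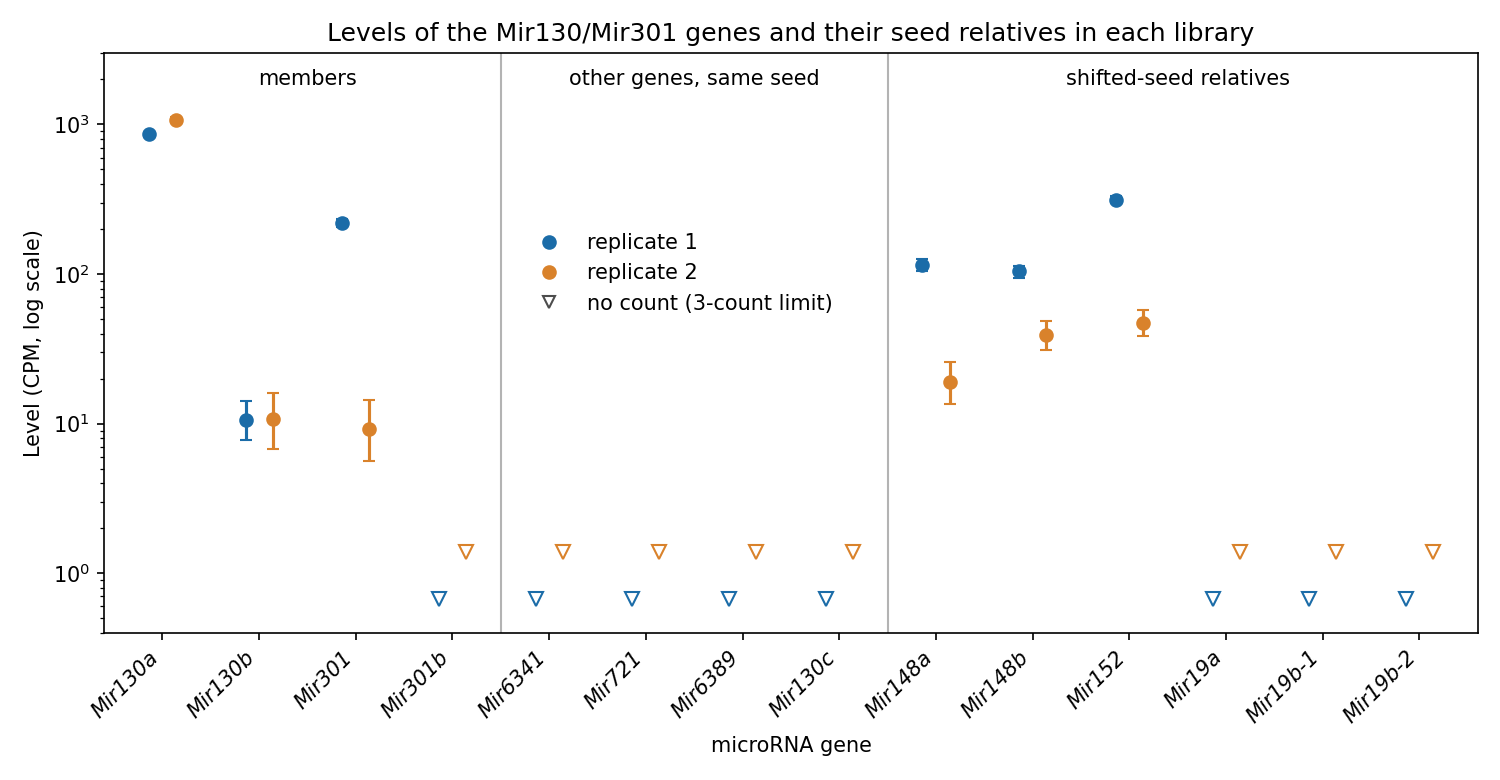
Level of each microRNA gene in CPM on a log axis, replicate 1 in blue and replicate 2 in orange, with exact 95% counting intervals as bars and open triangles at the 3-count limit for genes with no count. Mir130a is the highest member in both libraries, at 856 and 1075 CPM, Mir301 drops from 218 to 9.28 CPM, and Mir301b and the other genes of the same seed have no count.

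Together the members held a nearly equal share of the assigned counts in the libraries. Their sum was 4818 counts in replicate 1 and 2361 in replicate 2, or 0.108% (Wilson 95% interval 0.105 to 0.112) and 0.109% (0.105 to 0.114), a mean of 0.109% ± 0.000742 (SD, n = 2). With the scaling used for ratios the log2 ratio of the sums, replicate 2 over replicate 1, was 0.11 (0.04 to 0.18), but it was 0.01 on plain totals and −0.03 with DESeq2's size factors, so it has no settled direction. Without Mir301 the remaining members were higher in replicate 2, with a log2 ratio of 0.42 (0.34 to 0.49), and without Mir130a they were lower, at −3.37 (−3.90 to −2.99). The even total thus combined a higher Mir130a with a lower Mir301 in replicate 2.

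The composition of that total differed. Mir130a made up 78.9% (Wilson 95% interval 77.7 to 80.0) of the members' counts in replicate 1 and 98.2% (97.6 to 98.6) in replicate 2. Mir301 made up 20.1% (19.0 to 21.3) in replicate 1 and 0.847% (0.549 to 1.30) in replicate 2. Mir130b held 0.976% and 0.974%, a share that did not move beyond its intervals of 0.734 to 1.29% and 0.650 to 1.46%. There were 3.92 counts of Mir130a for each count of Mir301 in replicate 1 and 116 in replicate 2. These shares need no scaling between the libraries, since both sides of each come from the same library.

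**Figure D3:**
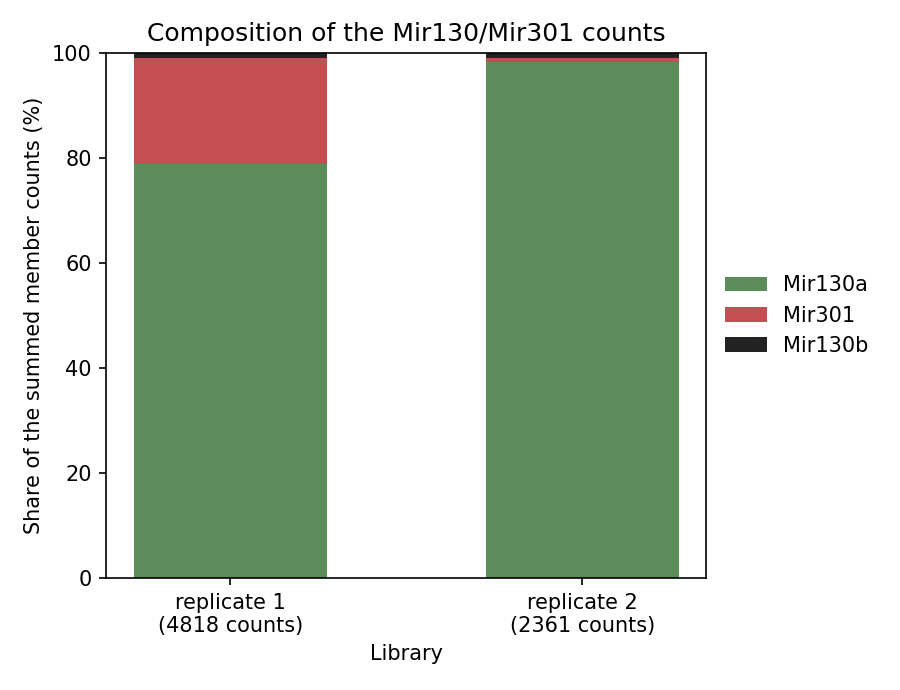
Share of the summed member counts, in percent, taken by each gene in each library (stacked bars from 0 to 100%, with the counts behind each bar under it). Mir301 takes 20.1% of the bar of replicate 1 and 0.847% of that of replicate 2, and Mir130a takes nearly all of the rest. Mir301b had no count and has no segment.

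On the scale of single genes, log2 ratios of replicate 2 over replicate 1 were taken on CPM + 1 after edgeR's TMM scaling. Mir130a was at 0.42 (exact 95% counting interval 0.35 to 0.50), or 1.34-fold higher in replicate 2 on this scale, and Mir130b at 0.10 (−0.68 to 0.85). Mir301 was at −4.33 (−5.18 to −3.83), 20.1-fold higher in replicate 1. Its interval did not overlap those of the other members, whereas the intervals of Mir130a and Mir130b overlapped.

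Ratios were counted for genes with at least 10 counts over both libraries. Of the 3 members that had them, 1, Mir301, was higher in replicate 1 by 2-fold or more. Among all 380 such genes the share was 18.7%. No member was 2-fold or more higher in replicate 2, where the share of all genes was 12.9%. The median ratio of the 3 members was 0.10 and that of all 380 genes 0.02. Since the genes were chosen on this contrast, nothing is read from these shares.

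The ratios of the 228 genes with 100 or more counts had an SD of 1.13 on the log2 scale. None of them had a lower ratio than Mir301, and the next was the erythroid gene Mir144 at −3.69. On the side of replicate 2, Mir122 lay further from 0 than Mir301, at 4.89 with 913 counts. In the scatter of all genes Mir130a and Mir130b lay inside the dense band around 0. The 20 counts of Mir301 in the shallower library stood above the limit of 3 counts.

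**Figure D4:**
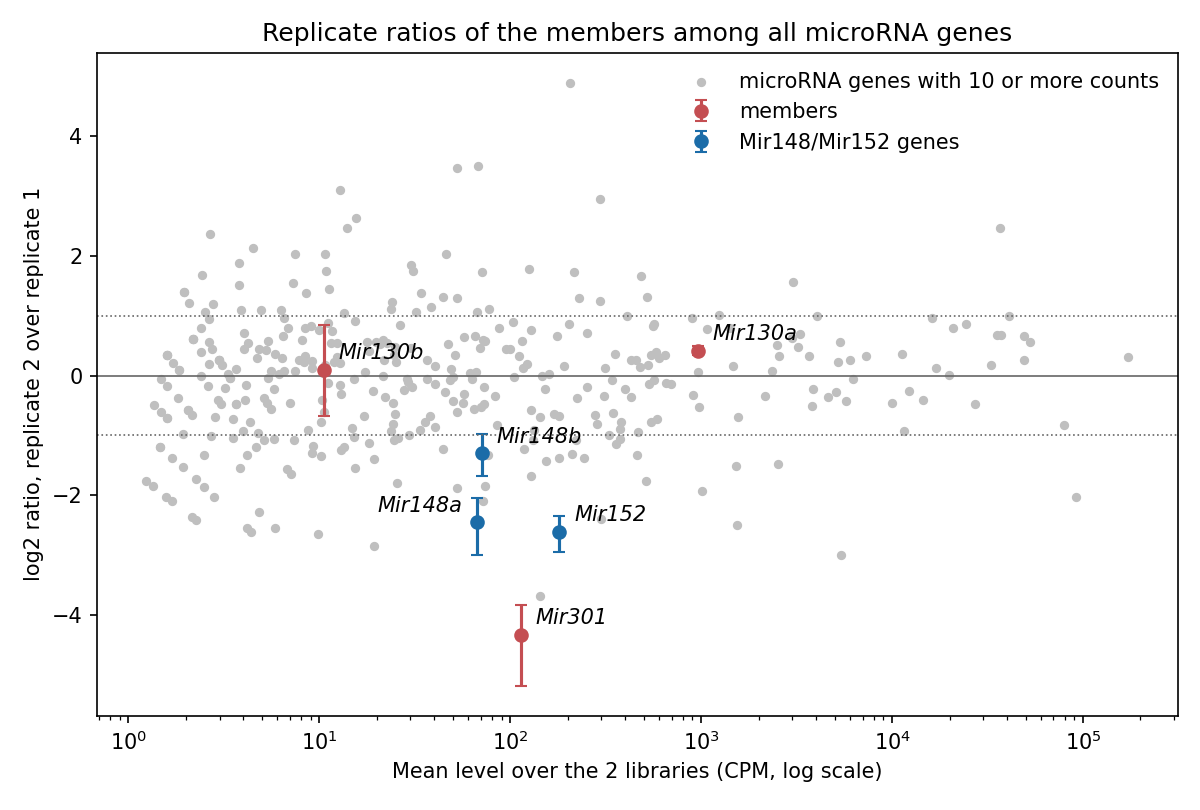
Log2 ratio of replicate 2 over replicate 1 against the mean level in CPM (log axis) for all microRNA genes with 10 or more counts (grey), with the members in red and the Mir148 and Mir152 genes in blue, bars giving exact 95% counting intervals. Dotted lines mark 2-fold differences. Mir301 at −4.33 is the lowest point of the plot, while Mir130a at 0.42 and Mir130b at 0.10 lie between the dotted lines.

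Reads that fit more than 1 place were not part of the gene counts, and they made up 73.8% of the reads of replicate 1 and 70.2% of those of replicate 2. A precursor that shares a stretch of read length with another could lose reads in this way. No member shared 20 bases with any of the other 2201 microRNA genes on either strand. With stretches of 16 bases each member shared 1 with another gene, Mir130a with Mir6389, Mir130b with Mir6368, and Mir301 with Mir301b. The longest such stretch was 17 bases for Mir130a and 16 for the other members. The search covered only microRNA genes, so copies elsewhere in the genome were not tested, and neither was the part of unassigned reads in the count of 0 for Mir301b.

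Other genes carry the same seed. RefSeq's table held 7 mature microRNAs with AGUGCAA at bases 2 to 8, of 1738 in all (0.403%), and 4 of these come from genes outside the family named above. They are shown to set their 3′ parts against those of the members, with the seed in capitals.
miR-130c: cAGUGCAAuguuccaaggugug
miR-721: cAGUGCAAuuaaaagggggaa
miR-6341: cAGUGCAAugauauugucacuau
miR-6389: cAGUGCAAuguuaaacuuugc

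None of the genes Mir130c, Mir721, Mir6341 and Mir6389 had a count in either library. The strands miR-6389 and miR-130c matched miR-130a-3p over their first 15 and 12 bases. Since reads that fit more than 1 place were left out, a count of 0 here does not show that no such strand was present. Among the 8 genes that carry this seed on a strand shown so far, all gene counts came from Mir130a, Mir301 and Mir130b, above all from Mir130a, and the counts do not say how many were of the strand with the seed.

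A second ring of relatives holds the same letters moved by 1 base. In the miR-148 and miR-152 strands CAGUGCA stands at bases 2 to 8, while in the members it stands at bases 1 to 7. In the miR-19 strands GUGCAA stands at bases 2 to 7, while in the members it stands at bases 3 to 8. Capitals mark these shared letters.
miR-148a-3p: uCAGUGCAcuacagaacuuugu
miR-148b-3p: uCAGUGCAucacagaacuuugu
miR-152-3p: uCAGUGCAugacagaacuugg
miR-19a-3p: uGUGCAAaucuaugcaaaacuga
miR-19b-3p: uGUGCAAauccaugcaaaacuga

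The miR-148 and miR-152 strands are known for repressing the DNA methyltransferase Dnmt1, and their genes were all higher in replicate 1. Mir152 stood at 314 CPM (replicate 1) against 47.3 CPM (replicate 2), with −2.61 as its log2 ratio (exact 95% counting interval −2.94 to −2.35). Mir148a held 115 and 19.0 CPM (−2.45, −3.0 to −2.05). Mir148b held 104 and 39.0 CPM (−1.30, −1.67 to −0.98). All 3 lay on the same side as Mir301, but none reached its ratio, and their intervals did not overlap its interval.

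Summed, the Mir148 and Mir152 genes took 0.0533% of assigned counts in replicate 1 and 0.0105% in replicate 2. The members exceeded them in both libraries, at 0.108% and 0.109%. The sum of the relatives moved with its genes, at a log2 ratio of −2.24 (−2.45 to −2.05), whereas the sum of the members did not move with Mir301. Mir19a, Mir19b-1 and Mir19b-2, members of the growth-promoting Mir17-92 cluster and its paralogue, had no count in either library. RefSeq gives Mir19b-1 and Mir19b-2 the same miR-19b-3p strand, and reads that fit several places were left out of the counts. The lack of counts therefore does not show that this strand was absent.

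The genes nearest to each member in level were found from log2(CPM + 1) over the 2 libraries, a likeness that rests on 2 points and says nothing of shared function. Nearest to Mir130a were Mir676 at 853 and 1088 CPM (distance 0.0186), the imprinted gene Mir127 at 968 and 947 CPM (0.255) and Mir320 at 822 and 1324 CPM (0.306). Nearest to Mir130b were Mir8112 at 10.6 and 10.2 CPM (0.0585), Mir450b at 10.4 and 11.1 CPM (0.0630) and Mir1955 at 11.9 and 10.2 CPM (0.170). The genes nearest to Mir301 lay further from it. They were Mir144 at 268 and 18.6 CPM (0.973), Mir148a at 115 and 19.0 CPM (1.33) and Mir340 at 119 and 25.5 CPM (1.62). Mir148a is thus both a relative by shifted seed and a neighbour of Mir301 by level.

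By position, the nearest microRNA gene to Mir301 was Mir21a, 529 kb away, with levels of 15455 and 7683 CPM in the order of the replicates. It was higher in replicate 1 as well, by far less than Mir301. The nearest to Mir130a was the gene model Gm24332, 187 kb away and with no count. Only Mir130b and Mir301b had each other as near neighbours.

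Marker lists of the cell types in this tissue were set beside these ratios. All 8 muscle genes were counted, summing to 12172 CPM (replicate 1) and 62283 CPM (replicate 2), with 3 higher by 2-fold in each direction. Nearly all of that sum was Mir206, a microRNA of skeletal muscle, at 11810 and 61540 CPM. The sum leaves out reads that fit several places. How many such reads came from Mir1a-1, Mir1a-2, Mir133a-1 and Mir133a-2 was not tested, so the make-up of the sum may not be that of the muscle microRNAs present. The median ratio of the muscle list was −0.39, on the side of replicate 1, where Mir1a-1, Mir1a-2, Mir133a-1, Mir133a-2 and Mir133b were higher, so the sum and the median point in opposite directions.

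Both erythroid genes, Mir451a and Mir144, were more than 2-fold higher in replicate 1, and their sum was 777 and 109 CPM. Endothelial Mir126a held 104418 and 55386 CPM, from 463895 and 119425 counts. Mir126b had no count on its own strand, but the strand opposite to it held 463884 and 119424 counts, so its 0 depends on the strand counted. The leukocyte list summed to 2755 and 4116 CPM, with a median ratio of 0.14, 1 of 5 counted genes higher in replicate 2 by 2-fold and Mir142b at 0. The strand opposite to Mir142b held 805 and 226 counts, the same as Mir142 held on its own strand. The mural list summed to 48844 and 56840 CPM, with a median ratio of 0.63 and no gene past 2-fold. It had only 2 counted genes, Mir143 at 0.26 and Mir145a at 1.00, which rounds to the 2-fold threshold. The fibroblast list summed to 3256 and 4837 CPM, with a median ratio of −0.78 and Mir199a-1 at 0. Its sum was higher in replicate 2 through Mir140, at 1602 and 4421 CPM, while Mir214 (−1.93), Mir199a-2 (−0.90) and Mir199b (−0.67) were higher in replicate 1. The erythroid genes, Mir126a and the medians of the muscle and fibroblast lists thus lay on the same side as Mir301, and the mural median on the other, while the leukocyte median lay near 0 within the shifts between scalings. Their part in the ratio of Mir301 was not tested, and fewer cells of a type cannot be told apart from less RNA per cell.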

How the data were processed

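Small RNA of 2 gastrocnemius libraries was measured by microRNA-seq. The authors deposited raw read counts per microRNA gene, on mm10 with GENCODE M21 per the file headers (the readmes beside the tables). How reads were trimmed, aligned and counted is not given in the sources used here. Of the 3 count columns, the one on the gene's strand was used, as identified from the values. Rows naming no gene, 84.3% and 80.2% of reads in replicates 1 and 2, stayed out of totals. All 2202 identifiers matched M21, and RefSeq's GRCm38.p6 table gave 4 hairpins and 7 mature strands of the members.

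CPM, Wilson and exact Clopper-Pearson 95% intervals were computed with Python 3.11.15, scipy 1.17.1, numpy 2.4.6 and pandas 2.3.3 and plotted with matplotlib 3.10.9. Ratio intervals come from the counts and leave out the 1 CPM added to ratios. TMM factors came from edgeR 4.0.16 (R 4.3.3) over genes with 10 or more counts, and size factors from DESeq2 1.42.0 were an alternative. The ratio step was checked on simulated data. No test was run, since 1 group has no contrast and the members were chosen on the replicate ratio.

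Members, gene lists and marker lists were chosen with earlier results of these data known. The genes named are the members, others of the same seed, 6 shifted-seed relatives, the 3 nearest in level to each member with 10 or more counts, the nearest microRNA gene by position, genes sharing 20 bases with a member, and the marker genes. Some genes were named after their values were seen. They are Mir144 as the gene next to Mir301 in ratio, Mir122 on the side of replicate 2, and the genes sharing 16 bases.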

Additional observations from a re-analysis of the deposited data

How the results depend on the processing

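The members' share of counts, 0.109%, was 0.151% with the counts without strand, 0.132% with the most abundant gene out of the total and 0.0193% with all reads of the tables as the total, changes that follow from smaller totals in the first 2 and a larger one in the last. It was 0.108% to 0.109% with either library left out. The log2 ratio of the summed members, 0.11, was 0.01 on plain totals, −0.03 with DESeq2's size factors and −0.04 with TMM over all genes, the last chosen after seeing the data. These scalings moved ratios by −0.0932, −0.136 and −0.146 on the log2 scale before 1 CPM is added. With it, genes of low level moved by less. Mir130a was then at 0.33, 0.29 and 0.28. Mir130b, 0.10, was at 0.01, −0.03 and −0.04, so its sign is not settled. Mir301 ranged from −4.47 with TMM over all genes to −3.89 with a pseudocount of 5 CPM. It was the member 2-fold or more higher in replicate 1 under every scaling, pseudocount and count filter run, and at 1.5-fold. With detection at 10 CPM 2 members remained, and at 1 CPM 3. Sharing of 20 bases held for 0 members and of 16 bases for 4. No paired analysis was possible because there is only 1 group. Depth limits Mir301b, at 0 counts, and Mir130b, whose 70 counts leave ratios within its interval unresolved.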

Other observations

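The 5p strands of the members do not share the family seed. RefSeq's entries, with bases 2 to 8 in capitals, gave 3 different 5p seeds for the 4 genes.
miR-130a-5p: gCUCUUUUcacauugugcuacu
miR-130b-5p: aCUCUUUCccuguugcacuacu
miR-301a-5p: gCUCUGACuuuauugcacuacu
miR-301b-5p: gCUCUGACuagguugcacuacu

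The strands miR-301a-5p and miR-301b-5p had the same seed, that of miR-130b-5p was shared with miR-7014-3p, and that of miR-130a-5p with no other mature strand of the table. The gene of miR-7014-3p had 1 count in replicate 1 and 0 in replicate 2. Counts per gene do not show how the 970 and 20 counts of Mir301 divide between its 5p and 3p strands.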
